A study of Homo sapiens with 9 samples.

Results

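The genes described here are 10 that mark, drive or oppose the epithelial-mesenchymal transition, in HSF-6, a human embryonic stem cell line. They are the transcription factor genes ZEB1, ZEB2, SNAI1, SNAI2 and TWIST1, the epithelial genes CDH1, EPCAM and ESRP1, and the mesenchymal genes CDH2 and VIM. Every probe set annotated to 1 of these genes alone was taken, which gave 21 of the 54675 probe sets on the array. The set was chosen by the measured ZEB1 signal in treated against untreated HSF-6(8) cells, so the members' values in that comparison are a description and carry no p-value. There were 9 samples of total RNA, 3 in each group, with 1 array each. HSF-6(S9) cells treated with butyrate and DZNep, HSF-6(8) cells treated with the same agents, and untreated HSF-6(8) control cells were all grown for 6 days and collected after 11 passages. Butyrate is an inhibitor of histone deacetylases, and DZNep (3-deazaneplanocin A) blocks S-adenosylhomocysteine hydrolase and with it histone methylation. No untreated HSF-6(S9) sample was analysed here, so in treated HSF-6(S9) against untreated HSF-6(8) the cell line variant and the treatment cannot be told apart. The labels do not say that the 3 arrays of a group came from separate cultures. The spread behind every p-value is that of these samples alone and may be technical.

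In an epithelial-mesenchymal transition, cells give up the junctions and polarity of an epithelium and take on the shape and motility of mesenchyme. ZEB1 and ZEB2 are zinc finger proteins, and SNAI1 and SNAI2 belong to the Snail family. All 4 bind E-box sequences and repress CDH1, the gene of the junction protein E-cadherin. TWIST1 is a basic helix-loop-helix factor that acts in the same transition. EPCAM is an epithelial adhesion protein, and ESRP1 is a splicing factor that maintains the epithelial isoforms of many transcripts. CDH2 encodes N-cadherin, which replaces E-cadherin in mesenchymal cells, and VIM encodes the intermediate filament protein vimentin. Human embryonic stem cells grow as epithelial sheets held together by E-cadherin, and they already express vimentin.

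A core E-box bound by ZEB and Snail proteins is CAGGTG, which reads CACCTG on the opposite strand. Both readings were searched in the RefSeq promoter windows of GRCh38.p14, each 300 bases from 250 before a gene's start to 50 after it. Of 35116 windows, 20.6% held at least 1 match and 0.64% held 3 or more. Among the 10 genes, ZEB1, ZEB2, CDH2 and VIM had windows, 11 in all, and 2 of these held a match, both at ZEB1. They are shown with ZEB2's window because ZEB1 and ZEB2 had the largest differences between treated and untreated cells among the 10 genes. Capitals mark the matches. The first ZEB1 window lies at chr10:31318167-31318466, the second at chr10:31318966-31319265, both on the plus strand, and the ZEB2 window at chr2:144520070-144520369 on the minus strand.
ZEB1 first window: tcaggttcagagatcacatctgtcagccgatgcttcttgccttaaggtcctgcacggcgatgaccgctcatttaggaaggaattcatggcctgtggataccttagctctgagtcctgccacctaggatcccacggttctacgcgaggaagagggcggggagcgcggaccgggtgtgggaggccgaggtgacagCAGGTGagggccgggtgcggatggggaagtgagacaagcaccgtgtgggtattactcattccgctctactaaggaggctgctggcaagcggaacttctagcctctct
ZEB1 second window: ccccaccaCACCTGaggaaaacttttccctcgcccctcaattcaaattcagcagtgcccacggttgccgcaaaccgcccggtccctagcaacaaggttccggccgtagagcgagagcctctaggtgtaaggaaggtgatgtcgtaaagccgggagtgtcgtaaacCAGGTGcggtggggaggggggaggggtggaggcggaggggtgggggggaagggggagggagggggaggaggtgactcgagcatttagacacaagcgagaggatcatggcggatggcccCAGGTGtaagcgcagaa
ZEB2 window: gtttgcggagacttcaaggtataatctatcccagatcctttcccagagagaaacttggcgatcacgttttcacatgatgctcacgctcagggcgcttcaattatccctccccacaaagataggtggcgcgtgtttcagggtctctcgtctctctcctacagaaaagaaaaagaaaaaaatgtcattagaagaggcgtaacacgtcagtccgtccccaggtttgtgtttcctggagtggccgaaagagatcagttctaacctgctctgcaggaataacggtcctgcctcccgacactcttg
The second ZEB1 window held 3 matches and the first held 1. A match is a string of letters, and binding was not measured here.

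The values are MAS5 signal intensities on a linear scale, one per probe set and array. Array medians ranged from 64.8 to 82.9, and precision is limited by the small number of arrays. A probe set entered the tests if its signal beat the array median on 3 or more of the 9 arrays, and 29328 did. Differences (the group named first minus the other) are of log2(signal + 16), which understates the fold of dim genes, and are given with the standard error from limma. A probe set was called when its Benjamini-Hochberg adjusted p over all kept probe sets was under 0.05 and its difference was at least 2-fold. The third arrays of the groups stood apart from the others, with 18S ribosomal RNA signals of 2149 in treated HSF-6(S9), 724 in treated HSF-6(8) and 1194 in untreated HSF-6(8), against 316 to 513 on the other arrays. Of 12 embryonic stem cell markers, 10 had a single-gene probe set and all 10 lay above the array median on at least 3 arrays.

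ZEB1 signal was high in both treated groups and low in untreated cells. Of its 4 probe sets, 1 was kept (212764_at). It read 181.8, 164.4 and 587.6 on the treated HSF-6(S9) arrays, 194.8, 126.9 and 171.9 on the treated HSF-6(8) arrays, and 3.76, 22.0 and 36.5 on the untreated HSF-6(8) arrays. Every treated array stood above every untreated array, and the treated groups overlapped. The means were 311 ± 239 in treated HSF-6(S9), 165 ± 34.5 in treated HSF-6(8) and 20.7 ± 16.4 in untreated HSF-6(8) (SD, n = 3 each). No untreated array exceeded its own median, so the probe set passed the filter through its treated arrays alone. In the comparison that put it forward, treated minus untreated HSF-6(8), the log2 difference was 2.39 ± 0.49 (SE), and it depended on the number added before the logarithm, with 3.35 when 1 and 1.44 when 64 was added.

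The HSF-6(S9) arrays played no part in choosing ZEB1, but the untreated arrays they are set against did. Because of that, and because of the filter, the difference of ZEB1 between treated HSF-6(S9) and untreated HSF-6(8) is also given as a description. It was 3.03 ± 0.49 (log2, SE), and all 3 HSF-6(S9) arrays were higher than every untreated array. Leaving out any single one of the 9 arrays kept the difference between 2.47 and 3.34, and on the first and second arrays alone it was 2.79. With the filter it lay past the threshold for a call, which is not read as a test. Without the filter it did not (limma, adjusted p = 0.0881). Treated HSF-6(S9) and treated HSF-6(8) differed by 0.64 ± 0.49 (SE; limma, 95% confidence interval -0.47 to 1.76, adjusted p = 1.00). Without the third HSF-6(S9) array, the one at 587.6, that difference was 0.08.

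The other ZEB1 probe sets were dim. Probe set 212758_s_at read 23.0, 15.9 and 202.3 on treated HSF-6(S9) arrays, 30.7, 38.6 and 142.3 on treated HSF-6(8) arrays and 18.1, 19.7 and 66.0 on untreated arrays. It was highest on the third array of each group, and the groups overlapped. Probe set 210875_s_at ranged from 33.9 to 77.1 in treated HSF-6(S9), from 18.9 to 39.0 in treated HSF-6(8) and from 1.15 to 40.5 in untreated HSF-6(8). The fourth, 239952_at, lay below the array median on all 9 arrays. The treated and untreated arrays therefore separated at 1 of the 4 ZEB1 probe sets.

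ZEB2 signal was also higher on most treated arrays, with wider spread. Probe set 203603_s_at read 282.8, 27.6 and 672.1 on treated HSF-6(S9) arrays, 268.0, 90.6 and 315.4 on treated HSF-6(8) arrays and 40.5, 36.1 and 59.1 on untreated arrays. All treated HSF-6(8) arrays lay above all untreated ones, whereas the second HSF-6(S9) array lay below them. Probe set 228333_at read 199.3, 87.5 and 697.6 on treated HSF-6(S9) arrays, 127.1, 108.0 and 194.6 on treated HSF-6(8) arrays and 31.3, 56.9 and 60.6 on untreated arrays. At this probe set every treated array exceeded every untreated array. Treated minus untreated HSF-6(8) was 1.84 ± 0.87 at 203603_s_at and 1.27 ± 0.59 at 228333_at (log2, SE). Treated HSF-6(S9) relative to untreated HSF-6(8) was 1.78 ± 0.87 at 203603_s_at and 1.97 ± 0.59 at 228333_at. As for ZEB1, no untreated array exceeded its median at either probe set, so both passed the filter through treated arrays alone and these differences are a description. Probe set 235593_at, which was not kept, read 60.4, 2.74 and 157.6 in treated HSF-6(S9), 31.1, 47.0 and 31.3 in treated HSF-6(8) and 2.07, 3.25 and 2.87 in untreated HSF-6(8). The remaining ZEB2 probe sets, 233031_at and 233033_at, lay below the median on every array.

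Of the Snail genes, SNAI2 was higher on most treated arrays and SNAI1 was near its untreated level, but neither was called. SNAI2, a driver of neural crest migration, read 119.7, 65.6 and 796.6 on treated HSF-6(S9) arrays, 128.2, 83.5 and 223.2 on treated HSF-6(8) arrays and 22.2, 44.2 and 95.2 on untreated arrays. The groups overlapped, because the third untreated array was above the second array of each treated group. The log2 difference was 1.25 ± 0.78 for treated minus untreated HSF-6(8). For treated HSF-6(S9) relative to untreated HSF-6(8) it was 1.71 ± 0.78 (SE; limma, adjusted p = 0.46). SNAI2 exceeded the median on 2 treated HSF-6(S9), 3 treated HSF-6(8) and 1 untreated arrays. It thus met the filter mainly through treated arrays, which limits this test. SNAI1 read 142.7, 151.5 and 79.0 on treated HSF-6(S9) arrays, 114.9, 174.6 and 87.9 on treated HSF-6(8) arrays and 104.3, 114.4 and 77.7 on untreated arrays. Its log2 differences from untreated cells were 0.26 ± 0.30 in treated HSF-6(S9) and 0.27 ± 0.30 in treated HSF-6(8) (SE).

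TWIST1 ran the other way. It read 84.2, 74.2 and 105.3 on treated HSF-6(S9) arrays, 85.7, 50.3 and 191.5 on treated HSF-6(8) arrays and 119.8, 110.0 and 280.5 on untreated arrays. All HSF-6(S9) arrays were below all untreated arrays, and the treated HSF-6(8) arrays overlapped the untreated ones. The log2 difference was -0.74 ± 0.44 (SE; limma, adjusted p = 0.601) for treated HSF-6(S9) relative to untreated HSF-6(8). It was -0.62 ± 0.44 for treated minus untreated HSF-6(8).

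**Figure D1:**
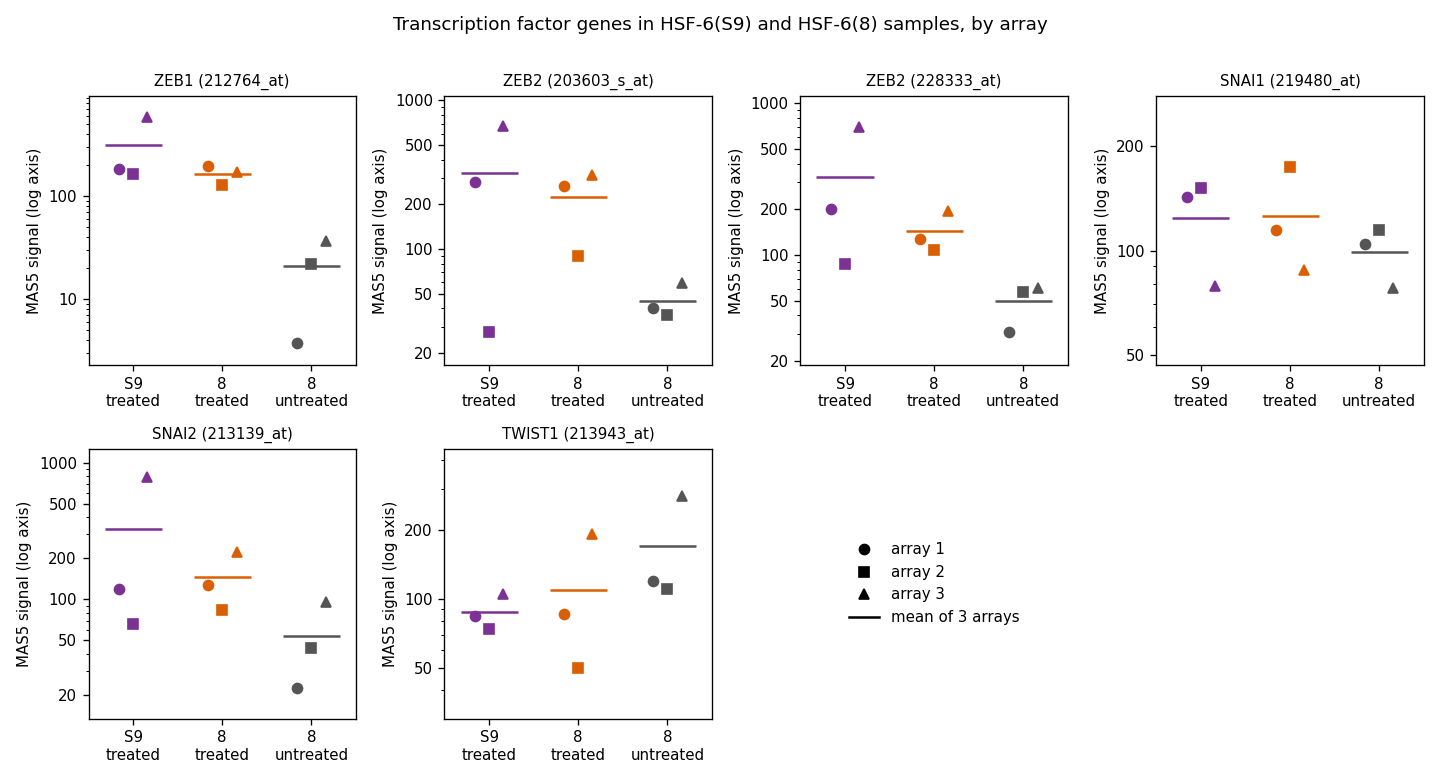
MAS5 signal on a log axis for the 6 kept probe sets of ZEB1, ZEB2, SNAI1, SNAI2 and TWIST1, with treated HSF-6(S9), treated HSF-6(8) and untreated HSF-6(8) from left to right. Points are arrays (circle for the first, square for the second, triangle for the third) and lines are the means of 3 arrays; ZEB1 is at least 126.9 on every treated array and at most 36.5 on every untreated array, and the third HSF-6(S9) array is the highest of all 9 for ZEB1, ZEB2 and SNAI2.

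The epithelial genes were bright on all 9 arrays at the probe set with the highest signal of each, and none was called lower in the treated cells in which ZEB1 was high. CDH1 probe set 201131_s_at read 11200, 17196 and 6413 on treated HSF-6(S9) arrays, 11114, 11908 and 8641 on treated HSF-6(8) arrays and 12821, 12252 and 9236 on untreated arrays. The groups overlapped, and the lowest and the highest of the 9 values were both HSF-6(S9) arrays. The lowest was the third HSF-6(S9) array, on which ZEB1 was highest (587.6). The other kept epithelial probe sets were also lowest there: EPCAM 6264, ESRP1 2396 and 1469, and the dimmer CDH1 probe set 49.1. On the other treated arrays ZEB1 read 126.9 to 194.8 and CDH1 8641 to 17196. The coincidence rests on a single array, the third arrays stood apart in every group, and its cause was not tested. The log2 difference of CDH1 was -0.11 ± 0.34 for treated minus untreated HSF-6(8). For treated HSF-6(S9) relative to untreated HSF-6(8) it was -0.08 ± 0.34 (SE; limma, 95% confidence interval -0.84 to 0.68). The dimmer probe set 201130_s_at ranged from 49.1 to 120.1 in treated HSF-6(S9), from 70.6 to 125.3 in treated HSF-6(8) and from 102.9 to 116.1 in untreated HSF-6(8).

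EPCAM read 9709, 17732 and 6264 on treated HSF-6(S9) arrays, 9277, 10664 and 8533 on treated HSF-6(8) arrays and 9505, 9538 and 8508 on untreated arrays. As for CDH1, the HSF-6(S9) arrays spanned the widest range and the groups overlapped. The range was not particular to epithelial genes. The summed signal of the embryonic stem cell markers was also highest on the second HSF-6(S9) array (213602) and lowest on the third (125185). Its log2 difference was 0.04 ± 0.33 for treated minus untreated HSF-6(8). For treated HSF-6(S9) relative to untreated HSF-6(8) it was 0.16 ± 0.33 (SE; limma, 95% confidence interval -0.58 to 0.91).

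ESRP1 was a little lower in treated cells at both probe sets, within the spread over all arrays of a group. Probe set 225846_at read 3809, 5425 and 2396 on treated HSF-6(S9) arrays, 4320, 4478 and 2908 on treated HSF-6(8) arrays and 4751, 4679 and 4148 on untreated arrays. The groups overlapped. Probe set 219121_s_at read 2810, 3275 and 1469 on treated HSF-6(S9) arrays, 2995, 3161 and 2343 on treated HSF-6(8) arrays and 3329, 3646 and 3204 on untreated arrays. Here all treated HSF-6(8) arrays were below all untreated arrays, by -0.27 ± 0.29 on the log2 scale, and the HSF-6(S9) arrays overlapped them. Treated HSF-6(S9) relative to untreated HSF-6(8) was -0.50 ± 0.29 at 219121_s_at (SE; limma, 95% confidence interval -1.16 to 0.15, adjusted p = 0.58) and -0.30 ± 0.30 at 225846_at (interval -0.98 to 0.38). Across CDH1, EPCAM and ESRP1, the 95% intervals of this comparison left a fall of 1 log2 unit outside at 4 of 5 probe sets, the exception being ESRP1 219121_s_at. The scale understates the fold of dim genes. For the dim CDH1 201130_s_at (interval -0.98 to 0.35), a 2-fold fall in signal is therefore not left outside. Those intervals are not adjusted for the number of probe sets. In a bulk sample, fewer cells of a type and less RNA per cell cannot be told apart. Whether a small fraction of cells lacked E-cadherin cannot be seen from these values and was not tested.

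Of the mesenchymal genes, CDH2 was higher in treated than in untreated cells at each of the marks that number the arrays, and VIM was bright in all groups. CDH2 probe set 203440_at read 1851, 1612 and 3268 on treated HSF-6(S9) arrays, 1860, 1769 and 4152 on treated HSF-6(8) arrays and 1046, 1053 and 2284 on untreated arrays. Within each mark both treated arrays exceeded the untreated array, but over all arrays the groups overlapped because the third untreated array was above the first and second treated arrays. Probe set 203441_s_at read 227.7, 196.9 and 316.9 on treated HSF-6(S9) arrays, 281.2, 306.5 and 686.9 on treated HSF-6(8) arrays and 90.0, 107.5 and 274.3 on untreated arrays. Treated minus untreated HSF-6(8) was 0.81 ± 0.44 at 203440_at and 1.38 ± 0.44 at 203441_s_at (log2, SE). Treated HSF-6(S9) relative to untreated HSF-6(8) was 0.64 ± 0.44 at 203440_at (limma, adjusted p = 0.649) and 0.73 ± 0.44 at 203441_s_at (limma, adjusted p = 0.605).

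VIM probe set 201426_s_at read 12022, 18707 and 18961 on treated HSF-6(S9) arrays, 12541, 13002 and 20495 on treated HSF-6(8) arrays and 13055, 11519 and 15799 on untreated arrays. The groups overlapped, and the log2 differences from untreated cells were 0.28 ± 0.27 in treated HSF-6(S9) and 0.16 ± 0.27 in treated HSF-6(8) (SE). The other VIM probe set, 1555938_x_at, exceeded the array median on 1 array and was not kept.

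**Figure D2:**
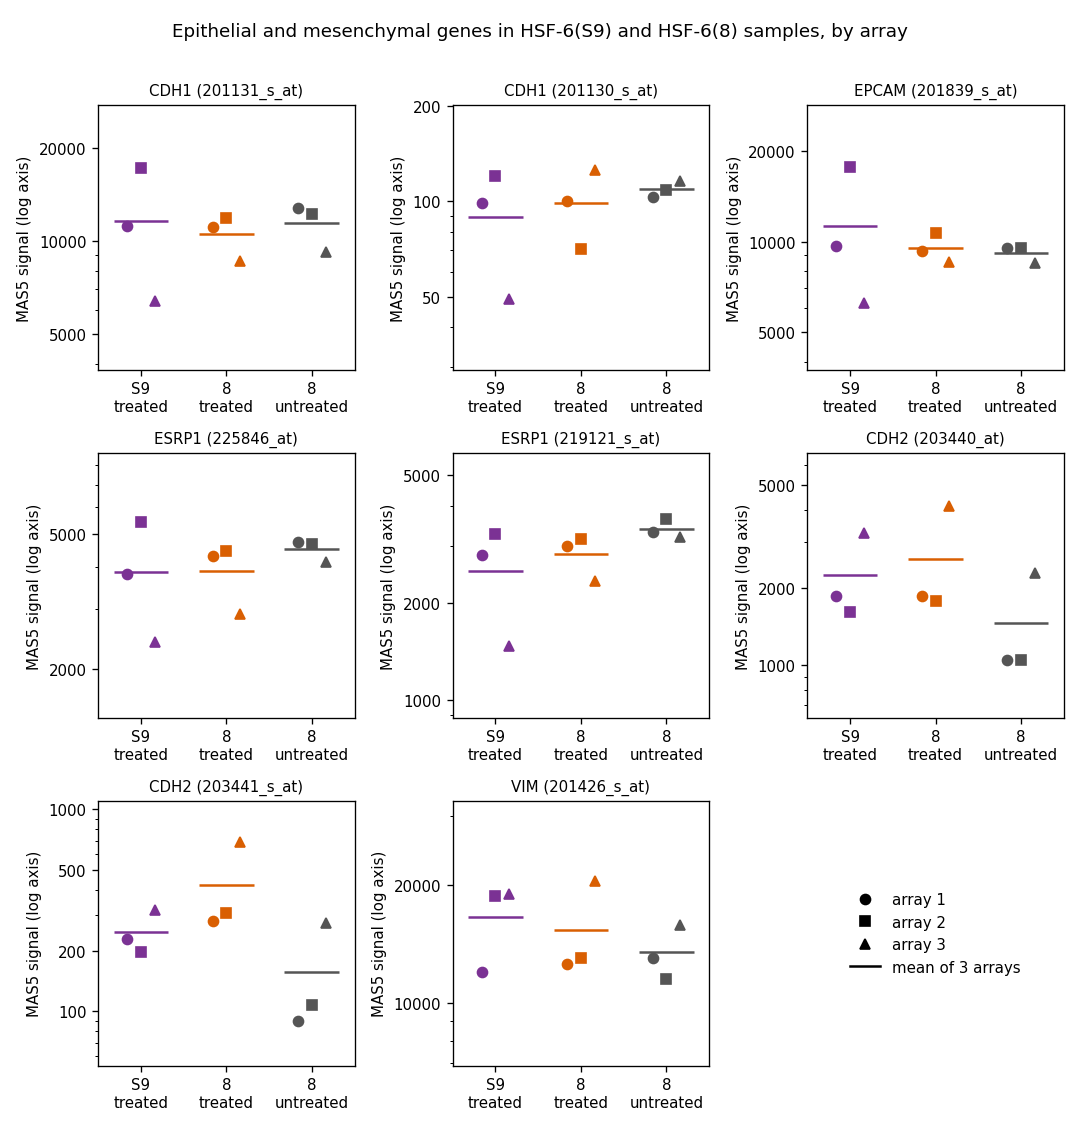
MAS5 signal on a log axis for the 8 kept probe sets of CDH1, EPCAM, ESRP1, CDH2 and VIM, with treated HSF-6(S9), treated HSF-6(8) and untreated HSF-6(8) from left to right. Points are arrays (circle for the first, square for the second, triangle for the third) and lines are the means of 3 arrays; the triangles are lowest in every group for CDH1 201131_s_at, EPCAM and ESRP1, and highest in every group for CDH2 and VIM.

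The 14 kept probe sets include at least 1 for each of the 10 genes. In treated HSF-6(8) against untreated HSF-6(8), 0.300% of all kept probe sets were called, and no test of the 14 is given because this comparison chose ZEB1. The groups did not overlap at 4 probe sets that were higher in treated cells (ZEB1, both of ZEB2 and CDH2 203441_s_at), where 8.82% of all kept probe sets behaved so, and at 1 that was lower (ESRP1 219121_s_at), where 6.04% did. Nothing is read from these counts.

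Between treated HSF-6(S9) and treated HSF-6(8), limma called 0 of the 14 probe sets and 0% of all kept probe sets, with 0 of the 14 and 712 of all at an unadjusted p under 0.05. With a term for the third arrays, CDH2 203441_s_at had an unadjusted p of 0.011 there (limma) and was not called. No gene of the set separated these groups without overlap, whereas 2.41% of all kept probe sets were higher and 4.05% lower on every HSF-6(S9) array. In treated HSF-6(S9) against untreated HSF-6(8), 0.389% of all kept probe sets were called. Leaving aside the 3 probe sets of ZEB1 and ZEB2 that passed the filter through treated arrays alone, limma called 0 of the other 11, and 0 of the 11 had an unadjusted p under 0.05, against 3304 of all kept probe sets. That count is of the unpaired fit, whose standard errors take in the shift of the third arrays. With a term for the third arrays limma also called 0 of the 11. Unadjusted p (limma) was then 0.0020 and 0.0060 for CDH2, 0.0036 for SNAI2, 0.018 for TWIST1 and 0.041 for ESRP1 219121_s_at. The share of all kept probe sets under 0.05 in that fit is not given here. Of the 11, SNAI2 met the filter mainly through treated arrays. Of all 14, 2 were higher without overlap (ZEB1 and ZEB2 228333_at), against 9.07% of all, and 1 was lower (TWIST1), against 8.35% of all. Those shares of the 14 are small counts near the background. The median log2 difference was 0.27 over the 14 and 0.16 over the 11 in that comparison, against -0.01 over all kept probe sets. Over the 14 it was -0.03 against -0.04 between the treated groups, and 0.22 against 0.02 for treated against untreated HSF-6(8). The comparisons share arrays pairwise and are not independent of each other, and a probe set that passed the filter only through treated arrays had to differ.

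**Figure D3:**
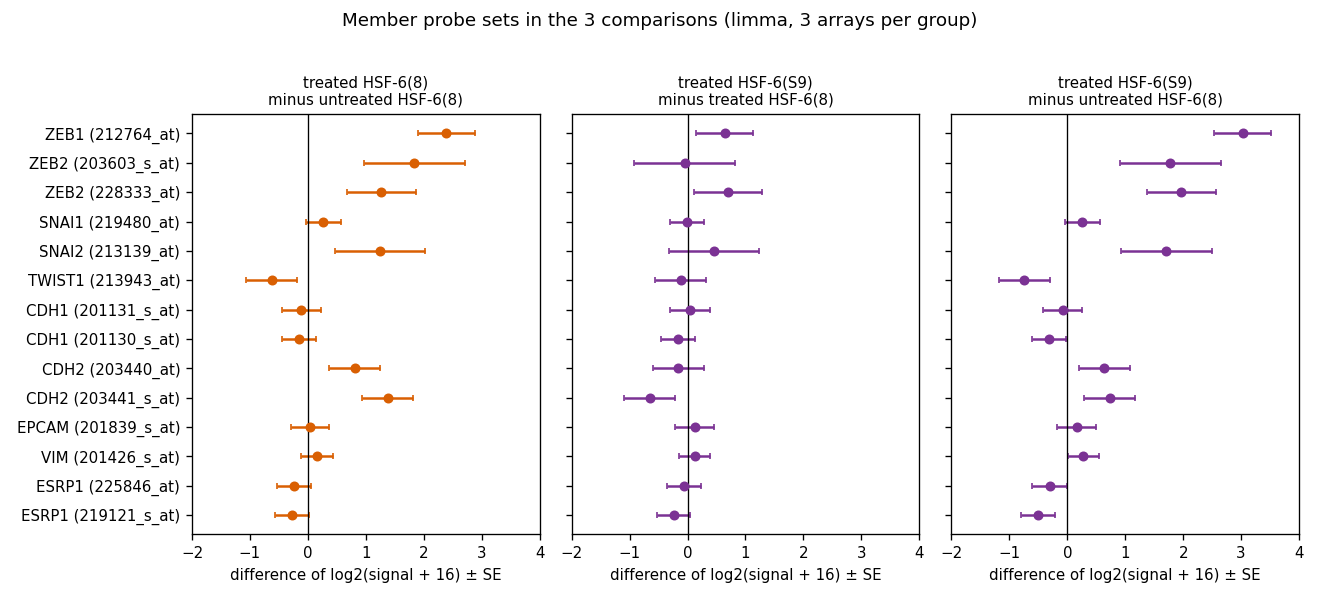
Differences of log2(signal + 16) with their standard errors from limma for the 14 kept probe sets in the 3 comparisons, 3 arrays per group. ZEB1, ZEB2 and SNAI2 lie to the right of 0 against untreated cells (ZEB1 2.39 in treated HSF-6(8) and 3.03 in treated HSF-6(S9)), the CDH1, EPCAM and ESRP1 points lie between -0.50 and 0.16, and every treated HSF-6(S9) relative to treated HSF-6(8) point lies between -0.65 and 0.70.

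Marker genes of other cell types also differed between the groups, and their part in the ZEB1, ZEB2, SNAI2 and CDH2 values was not tested. The summed signal of 9 endoderm genes was 1802 to 2344 in treated HSF-6(S9), 1665 to 12542 in treated HSF-6(8) and 816 to 1376 in untreated HSF-6(8). All 9 lay above the array median on at least 3 arrays, and 7 were higher on every treated array than on any untreated array. For this and the like counts below, the share over all kept probe sets was not computed for both treated groups together. Against untreated HSF-6(8), 8.82% were higher without overlap in treated HSF-6(8) and 9.07% in treated HSF-6(S9). FOXA2, APOA1 and, in the list below, PAX3 exceeded the median on treated arrays alone. The counts are descriptions. The highest sum was that of the third treated HSF-6(8) array, on which the endoderm factor GATA6 read 2541 and the Nodal antagonist CER1 read 4489. On all the other treated arrays CER1 was below every untreated array. It read 194.4 to 241 in treated HSF-6(S9), 187.8 and 233.9 on the first and second treated HSF-6(8) arrays, and 307.4 to 558.1 on untreated arrays. The sum of 10 neuroectoderm and neural crest genes was 8688 to 11427 in treated HSF-6(S9), 7631 to 9068 in treated HSF-6(8) and 5891 to 7014 in untreated HSF-6(8), with 7 of 10 genes above the median on at least 3 arrays. PAX3, a neural crest regulator, read 631.1, 193.3 and 1006 on treated HSF-6(S9) arrays, 501.2, 282.2 and 308.4 on treated HSF-6(8) arrays and 39.9, 46.2 and 22.7 on untreated arrays. It was higher on every treated array than on any untreated array, as were PAX6 and MAP2, 3 of the 10 genes of the list. The neural crest regulators SOX10, FOXD3 and TFAP2A overlapped between treated and untreated arrays, TFAP2A only through treated HSF-6(8). SOX10 ranged from 220.2 to 276.7 in treated HSF-6(S9), from 231.3 to 319.9 in treated HSF-6(8) and from 134.7 to 336.9 in untreated HSF-6(8). FOXD3 ranged from 260.6 to 628.4 in treated HSF-6(S9), from 265.9 to 561.9 in treated HSF-6(8) and from 312.1 to 437.8 in untreated HSF-6(8). TFAP2A ranged from 663.7 to 1395 in treated HSF-6(S9), from 304.8 to 1343 in treated HSF-6(8) and from 247.8 to 522.6 in untreated HSF-6(8). The sum of 12 fibroblast and stromal genes was 15225 to 17585 in treated HSF-6(S9), 15136 to 34876 in treated HSF-6(8) and 15709 to 20672 in untreated HSF-6(8). Of the 12, 10 lay above the median on at least 3 arrays and 8 on all 9, among them COL1A1, COL1A2, COL3A1, THY1, ACTA2 and TAGLN, whereas FAP did so on 0 arrays and LUM on 1. Of these genes, 1 (PDGFRA, also in the mesoderm list) was higher on every treated than on any untreated array, and 0 were lower. At THY1 and TAGLN every treated HSF-6(S9) array was below every untreated array, as were the first and second treated HSF-6(8) arrays. THY1 ranged from 931.1 to 1762 in treated HSF-6(S9), from 916.5 to 3393 in treated HSF-6(8) and from 1876 to 3884 in untreated HSF-6(8). TAGLN ranged from 2349 to 3344 in treated HSF-6(S9), from 2098 to 12908 in treated HSF-6(8) and from 5799 to 10038 in untreated HSF-6(8). The sum of 10 mesoderm genes was 1730 to 2403 in treated HSF-6(S9), 2164 to 8471 in treated HSF-6(8) and 1687 to 2113 in untreated HSF-6(8). Of the 10, 9 lay above the median on at least 3 arrays and 4 on all 9 (EOMES, MESP2, KDR and PDGFRA), and HAND2 on 0. Every treated array exceeded every untreated array at 3 of them, EOMES, HAND1 and PDGFRA. Embryonic stem cell markers summed to 125185 to 213602 in treated HSF-6(S9), 137645 to 145048 in treated HSF-6(8) and 140892 to 189667 in untreated HSF-6(8).

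At most of their probe sets the epithelial genes were lowest, and CDH2 and VIM highest, on the third array of each group. This pattern was noticed after the values were seen and is given as a description. Of the 14 kept probe sets, 7 were highest on the third array in all 3 groups, namely both of ZEB2, SNAI2, TWIST1, both of CDH2 and VIM, where 16.4% of all kept probe sets were. Another 5 were lowest on the third array in all 3 groups, namely SNAI1, CDH1 201131_s_at, EPCAM and both of ESRP1, where 13.8% of all kept probe sets were. ZEB1 212764_at and CDH1 201130_s_at did neither. Over all 21 probe sets the counts were 8 highest and 5 lowest. After quantile normalization the 14 gave 6 and 5, with ZEB2 228333_at no longer highest, and after setting equal medians they gave 6 and 5, with VIM no longer highest.

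CDH1 201131_s_at on the third array stood below the mean of the other arrays by -1.11 in treated HSF-6(S9), -0.41 in treated HSF-6(8) and -0.44 in untreated HSF-6(8), all on the log2 scale. The same log2 difference for EPCAM was -1.06 in treated HSF-6(S9), -0.22 in treated HSF-6(8) and -0.16 in untreated HSF-6(8). CDH2 203440_at went the opposite way, by 0.91 in treated HSF-6(S9), 1.19 in treated HSF-6(8) and 1.11 in untreated HSF-6(8). These differences also occurred in untreated cells. SNAI2 was higher on the third array by 2.95 in treated HSF-6(S9), 1.00 in treated HSF-6(8) and 1.21 in untreated HSF-6(8). The third arrays also had the high 18S signal, whereas their ratios of 3' to 5' GAPDH signal (0.986 to 1.08) lay within those of the other arrays (0.976 to 1.21). The same ratio for ACTB was 1.389 in treated HSF-6(S9), 1.245 in treated HSF-6(8) and 1.184 in untreated HSF-6(8) on the third array of each, against 1.204 to 1.67 on the other arrays, so the third untreated array lay below that range. Whether the 18S signal or the ACTB ratio bears on this pattern was not tested.

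**Figure D4:**
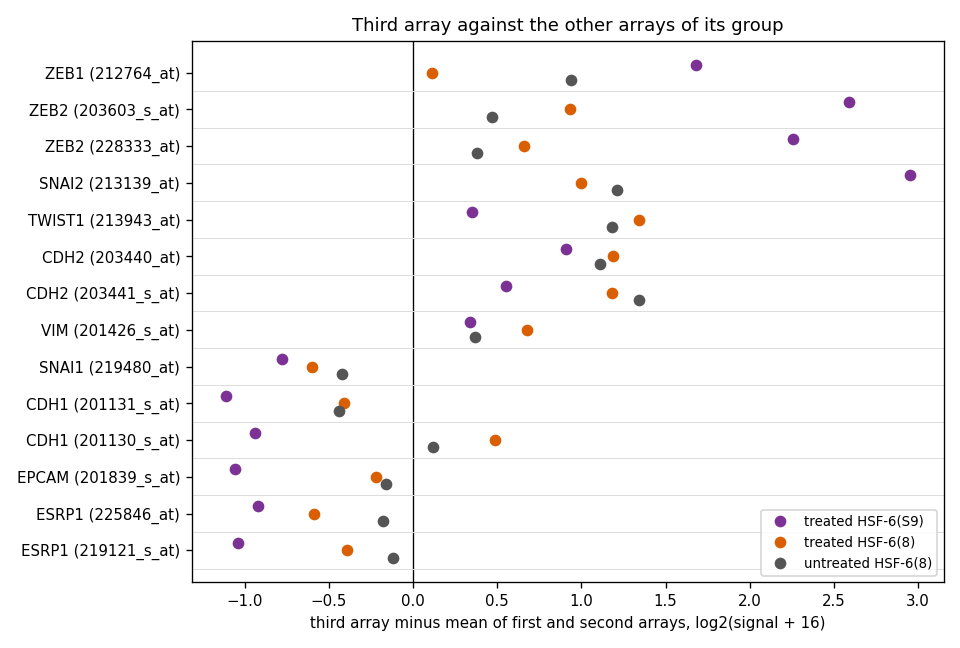
Log2 difference between the third array and the mean of the first and second arrays of the same group, for the 14 kept probe sets, with treated HSF-6(S9), treated HSF-6(8) and untreated HSF-6(8) drawn from top to bottom within each probe set. ZEB2, SNAI2, TWIST1, CDH2 and VIM lie above 0 in all 3 groups, and SNAI1, CDH1 201131_s_at, EPCAM and ESRP1 lie below 0 in all 3 groups.

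Genes that guard or carry the epithelial state were not called in either comparison with HSF-6(S9). Of 27 epithelial junction and polarity genes, 24 had a single-gene probe set and all 24 were kept; 0 were called higher or lower in these comparisons. Their median log2 difference was -0.20 for treated HSF-6(S9) relative to untreated HSF-6(8), -0.06 for treated minus untreated HSF-6(8) and -0.08 between the treated groups. ST14, which encodes the membrane protease matriptase, read 515.1, 370.0 and 241.4 on treated HSF-6(S9) arrays, 342.2, 308.7 and 503.7 on treated HSF-6(8) arrays and 733.1, 625.9 and 757.7 on untreated arrays. Every treated array was below every untreated array, and the difference of treated HSF-6(S9) from untreated HSF-6(8) was -0.94 ± 0.29 (SE; limma, adjusted p = 0.248). RAB25, a small GTPase of epithelial vesicle recycling, differed by -0.68 in the same comparison (limma, adjusted p = 0.529). Of 10 guardians of the epithelial state, 8 were kept and 0 were called. OVOL2, a zinc finger repressor of ZEB1, read 521.2, 861.7 and 276.7 on treated HSF-6(S9) arrays, 494.1, 690.4 and 231.7 on treated HSF-6(8) arrays and 933.4, 958.2 and 778.1 on untreated arrays. Its log2 difference was -0.80 ± 0.45 for treated HSF-6(S9) relative to untreated HSF-6(8) (SE; limma, adjusted p = 0.569) and -1.01 ± 0.45 for treated minus untreated HSF-6(8). GRHL3, a Grainyhead factor of surface epithelia, differed by 0.81 in treated HSF-6(S9) against untreated HSF-6(8) (limma, adjusted p = 0.41). Within these lists the third-array pattern also appeared, with 10 of the 24 junction genes lowest on the third array of all 3 groups (DSP, RAB25, PRSS8 and CDH3 among them) and 2 highest, where 13.8% of all kept probe sets were lowest and 16.4% highest.

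Of 22 mesenchymal effectors, 19 were kept and 0 were called. Their median log2 difference was 0.26 for treated HSF-6(S9) relative to untreated HSF-6(8), 0.47 for treated minus untreated HSF-6(8) and -0.16 between the treated groups. FN1, the gene of the matrix protein fibronectin, read 5491, 11905 and 7872 on treated HSF-6(S9) arrays, 5900, 7192 and 10039 on treated HSF-6(8) arrays and 2576, 2876 and 3676 on untreated arrays. The treated and untreated arrays did not overlap, and the difference of treated HSF-6(S9) from untreated HSF-6(8) was 1.41 ± 0.31 (SE; limma, adjusted p = 0.121). FBN1, which encodes the microfibril protein fibrillin, differed by 1.29 ± 0.36 (limma, adjusted p = 0.208). Of the 19, 6 were highest on the third array of all 3 groups, among them CDH11, COL5A2, LOX and TNC, and 1 was lowest, where 16.4% of all kept probe sets were highest and 13.8% lowest. TNC, the matrix glycoprotein tenascin C, read 531.2, 395.6 and 774.2 on treated HSF-6(S9) arrays, 582.5, 767.3 and 2081 on treated HSF-6(8) arrays and 287.3, 287.4 and 646.3 on untreated arrays.

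Of the 13 TGF-beta ligand, receptor and SMAD genes, all were kept and 1 was called in treated HSF-6(S9) against untreated HSF-6(8), where 0.389% of all kept probe sets were called. TGFBR3, the co-receptor betaglycan, read 526.9, 580.9 and 782.6 on treated HSF-6(S9) arrays, 524.7, 492.1 and 439.8 on treated HSF-6(8) arrays and 251.5, 282.3 and 215.3 on untreated arrays. Every treated array exceeded every untreated array. It rose by 1.27 ± 0.20 in treated HSF-6(S9) against untreated HSF-6(8) (SE; limma, adjusted p = 0.0422), and the call was kept in 11 of 22 alternatives, with adjusted p between 0.0172 and 0.138. The call ended without any single HSF-6(S9) array, any single untreated array, or either of the first 2 treated HSF-6(8) arrays, and was kept without the third treated HSF-6(8) array (limma, adjusted p = 0.0475). TGFB2, a TGF-beta ligand, read 263.3, 106.0 and 306.4 in treated HSF-6(S9), 269.2, 176.2 and 276.4 in treated HSF-6(8) and 107.6, 114.2 and 53.6 in untreated HSF-6(8).

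None of the other lists had a called member in the comparisons with HSF-6(S9). Of 11 other transition factors, 7 were kept, and FOXC2 and SOX9 differed most from untreated cells. FOXC2, a forkhead factor, read 239.3, 217.3 and 1187 on treated HSF-6(S9) arrays, 346.5, 240.2 and 308.3 on treated HSF-6(8) arrays and 12.2, 110.4 and 207.2 on untreated arrays. Its difference of treated HSF-6(S9) from untreated HSF-6(8) was 2.16 ± 0.80 (SE; limma, adjusted p = 0.339). SOX9, a factor of neural crest and cartilage, differed by 0.93 ± 0.20 in treated HSF-6(S9) against untreated HSF-6(8) (SE; limma, adjusted p = 0.117). Of 12 corepressors of ZEB and Snail proteins, all were kept. LOXL2, a lysyl oxidase that partners SNAI1, read 1959, 2058 and 1614 on treated HSF-6(S9) arrays, 1915, 2133 and 1439 on treated HSF-6(8) arrays and 1040, 923.6 and 597.6 on untreated arrays. Every treated array exceeded every untreated array, with a difference of 1.15 ± 0.25 for treated HSF-6(S9) relative to untreated HSF-6(8) (SE; limma, adjusted p = 0.118). With the replicate block LOXL2 was called (limma, adjusted p = 0.0355). Of 5 catenins, 4 were kept, and CTNND2 and CTNNB1, the gene of the E-cadherin partner beta-catenin, differed by 0.66 and 0.18 in that comparison. AJUBA differed by 0.62 (limma, adjusted p = 0.266).

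Treated against untreated HSF-6(8) shares its untreated arrays with the comparison above, and its values for these lists are given as a description. Its largest log2 differences among mesenchymal effectors were 1.34 ± 0.50 for TNC and 1.32 ± 0.31 for FN1 (SE). In the TGF-beta list they were 1.28 ± 0.40 for TGFB2 and 0.92 ± 0.20 for TGFBR3. FOXC2 differed by 1.75, SOX9 by 0.65, LOXL2 by 1.10 and AJUBA, a LIM protein that binds Snail proteins, by 0.46. Among epithelial genes, ST14 differed by -0.87, RAB25 by -0.65 and the Grainyhead factor GRHL1 by 0.60. The catenins CTNND2 and CTNNA1 differed by 0.43 and -0.33.

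Between treated HSF-6(S9) and treated HSF-6(8) no list had a called gene, and the largest differences in each were within 1 log2 unit. They were -0.82 for TNC and -0.80 for the matrix protease gene MMP9, -0.51 for the inhibitory SMAD7 and 0.35 for TGFBR3. FOXC2 differed by 0.42 and the Snail family member SNAI3 by -0.37, and among the guardians GRHL3 differed by 0.45 and KLF5 by -0.41. The polarity gene PARD6B differed by -0.41 and the protease inhibitor gene SPINT1 by -0.31. KDM1A, the histone demethylase LSD1, differed by 0.22 and AJUBA by 0.16, and CTNND2 and CTNNA1 differed by 0.22 and 0.20.

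The genes whose signal ran most like that of ZEB1 212764_at over the 9 arrays were GTF3C4, UBE2E3, TRIT1, FBXL5 and TTC13, with Pearson's r between 0.980 and 0.990 on the log2 scale among 24774 kept single-gene probe sets. GTF3C4 read 1231, 1142 and 1494 on treated HSF-6(S9) arrays, 1226, 1112 and 1266 on treated HSF-6(8) arrays and 731.2, 810.3 and 864.0 on untreated arrays. For CDH1 201131_s_at they were IER2, TENT5B, RCCD1, GGNBP2 and NBR1, with r between 0.971 and 0.994. IER2 read 5708, 9146 and 3570 on treated HSF-6(S9) arrays, 6230, 6436 and 4632 on treated HSF-6(8) arrays and 6781, 6526 and 4741 on untreated arrays. The ZEB1 profile thus separated treated from untreated arrays, and the CDH1 profile followed the second and the third HSF-6(S9) arrays. Among the members, r was taken at the probe set with the highest signal of each gene. For ZEB1 it was -0.439 with CDH1, -0.157 with EPCAM and -0.612 with ESRP1. It was 0.855 with SNAI2, 0.775 with ZEB2, 0.707 with CDH2, 0.474 with VIM, 0.034 with SNAI1 and -0.308 with TWIST1. For CDH1 it was -0.827 with SNAI2, -0.777 with ZEB2, -0.446 with TWIST1 and 0.737 with SNAI1. It was 0.931 with ESRP1, 0.919 with EPCAM, -0.734 with CDH2 and -0.367 with VIM. In every group SNAI2 and ZEB2 were highest and CDH1 was lowest on the third array at these probe sets. The part of that shift in these r was not tested. The 9 points share groups and arrays, and these values are descriptions.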

How the data were processed

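Total RNA of 9 samples was hybridised to 9 Affymetrix arrays. The authors made the deposited signal intensity values with Affymetrix Expression Console and MAS5, per the submitters' processing notes, and the sources used here do not give a version of either. The values are linear and hold no detection calls. Probe sets were named through the platform annotation, with symbols updated by Entrez number; of 54675 probe sets, 62 were controls, 41091 had 1 gene, 1801 several and 11721 none listed. From the deposited intensities log2(signal + 16) was computed. A single linear model over the 9 arrays was fitted to 29328 kept probe sets with lmFit and eBayes of limma 3.58.1 under R 4.3.3 (two-sided, Benjamini-Hochberg; 6 residual and 3.2 prior degrees of freedom). The fit was run on simulated data with independent noise on each array. Those data lacked the shift shared by the third arrays, so they do not show how the fit behaves under it. Tables were handled in Python 3.11.15.

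The members and gene lists were chosen with earlier results of these data known. All members and all their probe sets are named; from each list the text takes up to 4 called genes per comparison, or else up to 2 with the largest differences, at the probe set with the highest mean, and 5 genes by likeness. The marker genes named one by one and the genes listed by their position on the third arrays were named after their values were seen.

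The titles give the arrays of each group a prime mark, which the labels do not explain. Arrays of the same mark correlated after group means were removed, with r of 0.27, 0.22 and 0.41 between treated HSF-6(S9) and treated HSF-6(8), 0.12, 0.20 and 0.54 between treated HSF-6(S9) and untreated HSF-6(8), and 0.32, 0.28 and 0.59 between treated and untreated HSF-6(8). All were over 0.1, although first and second arrays correlated as much across marks (up to 0.38). The main fit held no term for the marks, so its standard errors, intervals and p-values are unpaired. They also take in the shift of the third arrays. Pairing by mark, the replicate block, was fitted only as an alternative. Alternatives were other added numbers, filters, scalings, priors and array subsets, 1 probe set per gene, the replicate block and a term for the third arrays.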

Additional observations from a re-analysis of the deposited data

How the results depend on the processing

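The 1 probe set of the 14 past the threshold, ZEB1 in treated HSF-6(S9) against untreated HSF-6(8), is not read as a test, and was not past it (0 calls) with 1 or 64 added before the logarithm, with no filter on low values, with the stricter 75th percentile filter (which removes ZEB1), with only the 2 groups compared and with only the first and second arrays. Leaving out single arrays gave 0 to 0 calls. In treated against untreated HSF-6(8), the replicate block, the third arrays as a batch term, and that term after quantile normalization (chosen after seeing the data, as were the third-array counts under other scalings) put 2 members past the threshold (ZEB1 and CDH2 203441_s_at with the block) in place of 0, from which nothing is read, and leaving out single arrays gave 0 to 1. With the replicate block, limma called 148, 0 and 233 of all kept probe sets in treated against untreated HSF-6(8), between the treated groups, and in treated HSF-6(S9) against untreated HSF-6(8), in place of 88, 0 and 114; it changed no other call among the 14 in comparisons with HSF-6(S9). Over all alternatives these counts ran from 42 to 214, 0 to 1 and 36 to 295. Of 592 member differences recomputed in the comparisons with HSF-6(S9), 40 turned sign, none of them called, 0 became called and 14 lost the ZEB1 call; the cause was not tested. Between the treated groups the sign turned to 0.09 with 64 added for ZEB2 203603_s_at, to 0.10 after quantile normalization with or without the third-array term and 0.04 with equal medians for SNAI1, and to -0.11, -0.03 and -0.06 after quantile normalization with or without that term for CDH1 201131_s_at, EPCAM and VIM. With only the first and second arrays it turned to 0.05 for SNAI1, -0.19 for SNAI2, 0.21 for TWIST1, 0.32 for CDH1 201130_s_at and 0.05 for ESRP1 225846_at, and against untreated HSF-6(8) to 0.15 for CDH1 201131_s_at and 0.04 for CDH1 201130_s_at. Leaving out single arrays moved the difference between the treated groups over -0.92 to 1.07 for ZEB2 203603_s_at, -0.06 to 1.34 for ZEB2 228333_at, -0.21 to 0.25 for SNAI1 219480_at, -0.52 to 1.14 for SNAI2 213139_at, -0.49 to 0.33 for TWIST1 213943_at, -0.30 to 0.41 for CDH1 201131_s_at, -0.38 to 0.15 for CDH1 201130_s_at, -0.47 to 0.23 for CDH2 203440_at, -0.28 to 0.47 for EPCAM 201839_s_at, -0.01 to 0.34 for VIM 201426_s_at, -0.34 to 0.25 for ESRP1 225846_at, -0.46 to 0.11 for ESRP1 219121_s_at. Against untreated HSF-6(8) the treated HSF-6(S9) ranges were -0.42 to 0.29 for CDH1 201131_s_at, -0.23 to 0.52 for EPCAM 201839_s_at, -0.58 to 0.01 for ESRP1 225846_at. Dim values limit ZEB1 and ZEB2 in untreated cells, where signals lay under the array median.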
